A study of Mus musculus with 116 samples.

Results

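The genes described here were 37 genes of the p53 pathway and its apoptosis arm, fixed as a list of symbols, of the 53379 genes counted in the series. They fell into 4 regulators (Trp53, Mdm2, Zmat3 and Rps27l), 13 genes of apoptosis (Phlda3, Pmaip1, Bbc3, Bax, Perp, Eda2r, Tnfrsf10b, Fas, Aen, Pidd1, Apaf1, Ei24 and Trp53inp1), 8 genes of cell cycle arrest and mitosis (Ccng1, Gtse1, Btg2, Plk2, Plk3, Gadd45a, Ckap2 and Psrc1), 4 genes of DNA repair (Ddb2, Xpc, Polk and Rrm2b) and 8 genes of metabolism and stress (Sesn1, Sesn2, Sesn3, Tigar, Fdxr, Ddit4, Gdf15 and Dram1). Cdkn1a, the cyclin-dependent kinase inhibitor p21, was not among the 37 and is given only with the other p53 targets.

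p53, the product of Trp53, is a transcription factor that is held at a low level because Mdm2, itself a p53 target, marks it for degradation. DNA damage and other stresses stabilise the protein, so that its activity is set largely after translation and is read from its targets rather than from Trp53 mRNA. Its targets halt the cell cycle, repair DNA, alter metabolism or open the mitochondrial and death receptor routes to apoptosis. In the developing cortex, where neural progenitors divide rapidly, activation of p53 is known as a route to progenitor and neuron loss and to a small brain.

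The study removed Eed, a core subunit of Polycomb repressive complex 2 (PRC2), from the dorsal forebrain of mice by mosaic analysis with double markers (MADM). In MADM, Cre recombination between the paired chromosomes of a dividing cell restores a fluorescent marker and can make that cell homozygous for an allele on the marked chromosome, here chromosome 7, which carries Eed. There were 3 paradigms, all with the Emx1-cre driver, which is active in the Emx1 lineage of the dorsal telencephalon, and all with GT and TG MADM cassettes on chromosome 7. In control-MADM (MADM7-GT/TG;Emx1-cre) green cells were Eed+/+, in Eed-MADM (MADM7-GT/TG,Eed;Emx1-cre) sparse green Eed-/- cells lay in heterozygous tissue, and in cKO-Eed-MADM (MADM7-GT,Eed/TG,Eed;Emx1-cre) green cells and the surrounding recombined tissue were all Eed-/-. Green cells were sorted at embryonic day (E) 12.5, E13.5 and E16.5 and at the day of birth, postnatal day (P) 0, from pools of 2 to 3 cortices per sample, from mice given as CD1 in the labels and as mixed C57BL/6 and CD1 of both sexes in the methods. Green cells were marked for paternal disomy of chromosome 7 in every paradigm, so Bbc3, Bax, Aen and Pidd1, which lie on that chromosome, came from 2 paternal copies in all groups. The paper reported a thin cortex and more apoptosis in cKO-Eed-MADM mice. Deleting Trp53 together with Eed abolished the apoptosis, but the paper found no rescue of cortical thickness.

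Of 68 green libraries, 55 passed the depth limits of at least 1000000 uniquely aligned reads and at least 60% of reads uniquely aligned: for E12.5 these were 5 from control-MADM, 8 from Eed-MADM and 4 from cKO-Eed-MADM pools. In the same order there were 2, 2 and 4 libraries for E13.5, then 3, 5 and 4 for E16.5, then 5, 9 and 4 for P0. They held 865832 to 7249098 reads assigned to genes. Eed itself had a lower mean in both mutant paradigms than in control-MADM at every time point. At P0 it was at 29.4 ± 2.60 CPM in control-MADM (counts scaled to a library of 1000000 reads; mean ± SD, n = 5), against 15.1 ± 3.09 CPM for Eed-MADM (n = 9) and 11.5 ± 3.22 CPM for cKO-Eed-MADM (n = 4). These counts cover the whole gene, so they do not measure how complete the deletion was. The paper counted reads in the deleted region alone and reported efficient depletion. It also removed libraries for many reads there or low correlation with replicates, limits not applied here. Per the study's methods, E12.5 cells were sorted into lysis buffer and cells of the later time points into an RNA extraction buffer. Gene reads per library ran from 865832 to 2359317 at E12.5 and from 2784557 to 7249098 later. At E12.5 the libraries were less alike than later, the median correlation of a library with the others running from 0.731 to 0.865 against 0.848 to 0.946 at P0, and the summed red blood cell genes ran from 2.92 to 11301 CPM. The library that correlated least, Eed-MADM replicate 9, had summed mitosis genes at 475 CPM against 1720 to 3995 CPM in the other Eed-MADM libraries of E12.5. Pooled cortices served as replicates, and p-values measure the spread between pools.

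p53 binds response elements made of a pair of half-sites, each with a core of 4 bases. Promoter windows, from 250 bases before to 50 bases after the start in the RefSeq annotation of GRCm38.p6, were found for 29 of the 37 genes. The windows were searched on both strands, the consensus being palindromic, for the p53 response element, scored as 2 abutting half-sites with exact cores and at most 3 mismatches in the 12 flanking positions, and for exact single half-sites of 10 bases. Some genes have more than 1 start and window, and a gene was counted where any of its windows held a match. Of the 29 members 7 (24.1%) had a response element against 182 of all 27025 genes with a window (0.673%), and 12 (41.4%) had an exact half-site against 2582 (9.55%). A gene can have both. Of the genes that carry an element, Aen, Bbc3 and Rps27l were higher and Trp53 was lower in cKO-Eed-MADM in some comparison of genotypes at P0. Ckap2, Gtse1 and Tigar passed in no comparison of genotypes. Of all 34 members tested at P0, 55.9% were called against control-MADM and 55.9% against Eed-MADM. Whether an element bore on the calls was not tested. Capitals mark the element, sequences read 5′ to 3′ on the strand given, and the annotation is that of GENCODE M21.
Trp53, chr11:69580279-69580308, plus strand, outside annotated genes: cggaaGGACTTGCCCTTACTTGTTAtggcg
Rps27l, chr9:66946291-66946320, plus strand, an intron of Rps27l: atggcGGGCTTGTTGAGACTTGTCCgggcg
Bbc3, chr7:16309481-16309510, plus strand, an intron of Bbc3: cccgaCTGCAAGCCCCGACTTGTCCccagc
Aen, chr7:78895932-78895961, plus strand, an untranslated exon of Aen: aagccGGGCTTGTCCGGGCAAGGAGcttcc
Gtse1, chr15:85859940-85859969, plus strand, an untranslated exon of Gtse1: accggGAGCAAGTTGGGGCTTGCCTctgac
Ckap2, chr8:22185998-22186027, minus strand, outside annotated genes: tctgaAGACATGTCCTGACTTGTCAagcct
Tigar, chr6:127109741-127109770, minus strand, a noncoding exon of Platr31: gcggcGGTCTAGCTCTGGCAAGACTccagg
The elements of Rps27l and Gtse1 had 1 mismatch, that of Ckap2 had 2, and the others had 3.

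Exact single half-sites, marked in capitals, stood without an element in the windows of 7 members. Of these, Ccng1, Gadd45a and Polk were higher in cKO-Eed-MADM at P0, and Mdm2, Bax, Ei24 and Sesn1 were called in no comparison. Of all 34 members tested at P0, 50.0% were higher than in control-MADM, and the part of the half-sites was not tested. The first 3 and Mdm2, the negative regulator of p53, are shown.
Ccng1, chr11:40755457-40755476, minus strand, outside annotated genes: tgcccGGGCAAGCCTtggca
Gadd45a, chr6:67037433-67037452, minus strand, a noncoding exon of Gadd45a: gctgaGGGCTAGCCCcatat
Polk, chr13:96519404-96519423, minus strand, an intron of Polk: agcttGAACTAGCCTcaaac
Mdm2, chr10:117710930-117710949, minus strand, outside annotated genes: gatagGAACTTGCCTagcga
The windows of Phlda3, Eda2r, Fas, Btg2, Plk2, Sesn2 and Sesn3 held neither match, which says only that these letters are not in those windows.

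At P0, the day of birth, members of the p53 pathway were higher in cKO-Eed-MADM than in control-MADM. Of 34 members tested, 17 were higher and 2 were lower at an adjusted p under 0.05 (55.9% called), beside 24.2% of the 14161 genes tested (14.2% of them higher). Fas passed the filter on low counts only through its cKO-Eed-MADM libraries, and without it 16 of 33 members were higher and 2 were lower (54.5%). All p-values are from edgeR's quasi-likelihood test with Benjamini-Hochberg adjustment over all genes tested in a comparison, and fold changes are given on the log2 scale with their standard error (SE). The median log2 fold change of the 34 members was 0.88 (0.86 without Fas), beside -0.01 over all genes tested. In 15 members, Fas among them, every cKO-Eed-MADM library lay above every control-MADM library, beside 10.3% of all genes tested. In 1 member, Xpc, every one lay below.

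The roles differed in how many members passed. Of the apoptosis genes tested 9 of 12 were higher and none was lower (median log2 fold change 1.26, positive in 12 of 12), or 8 of 11 without Fas (median 1.19). Among the genes of cell cycle arrest and mitosis 4 of 8 were higher and none was lower (median 1.01, positive in 8 of 8). Of the DNA repair genes 1 of 4 was higher and 1 was lower, with a median of 0.51. Of the metabolism and stress genes 2 of 6 tested were higher, with a median of 0.14. Of the regulators 1 of 4 was higher and 1 was lower (median 0.12). The differences between roles were not tested.

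**Figure D1:**
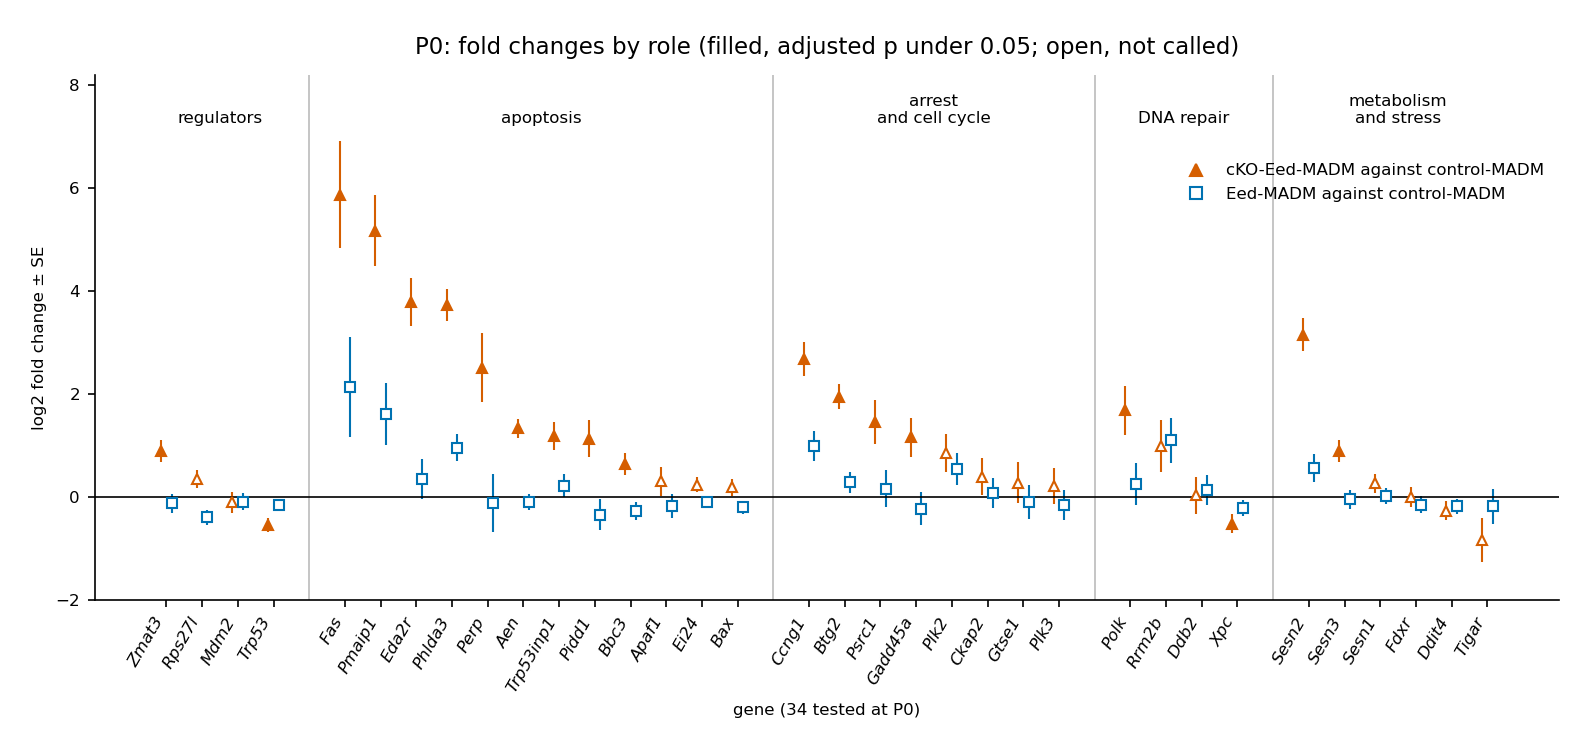
Log2 fold change over control-MADM at P0, for cKO-Eed-MADM (orange triangles) and Eed-MADM (blue squares), in the 34 p53 pathway members tested, by role. Points give the estimate, bars 1 SE, and filled points an adjusted p under 0.05. For cKO-Eed-MADM all 12 apoptosis genes and all 8 genes of arrest and mitosis tested lie above 0, and 19 points are filled. For Eed-MADM 5 genes in each of these roles lie above 0, and no point is filled.

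Among the regulators, Trp53 mRNA was lower, not higher, in cKO-Eed-MADM. Trp53 (chr11:69580359-69591873 in GRCm38) stood at 182, 197, 206, 230 and 226 CPM in the control-MADM libraries of P0, at 150, 186 and 203 CPM (lowest, median and highest of 9) in Eed-MADM, and at 130, 131, 121 and 184 CPM in cKO-Eed-MADM. Of the 4 cKO-Eed-MADM libraries 3 lay below every library of the other paradigms, and the remaining library lay within the range of Eed-MADM and just above the lowest control-MADM library. The log2 difference from control-MADM was -0.55 ± 0.13 (SE; adjusted p = 0.00414, edgeR).

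Mdm2, the ubiquitin ligase that p53 induces and that marks p53 for degradation, passed in no comparison. It stood at 97.0, 107, 126, 44.3 and 109 CPM in the control-MADM libraries, at 68.9, 90.7 and 107 CPM (lowest, median and highest) in Eed-MADM, and at 76.8, 72.7, 100 and 108 CPM in cKO-Eed-MADM. The groups overlapped throughout, with a log2 difference between cKO-Eed-MADM and control-MADM of -0.10 ± 0.21 (SE; adjusted p = 0.758, edgeR). Zmat3, an RNA-binding splicing regulator that p53 induces, stood at 44.1, 43.3, 33.7, 38.3 and 41.4 CPM in control-MADM, at 27.0, 39.5 and 48.6 CPM in Eed-MADM, and at 68.6, 43.2, 73.4 and 111 CPM in cKO-Eed-MADM. It was higher by 0.90 ± 0.22 (adjusted p = 0.00426, edgeR), with 1 cKO-Eed-MADM library within the range of the other paradigms. Rps27l, a ribosomal protein paralogue that p53 induces, stood at 62.9, 70.7, 63.5, 131 and 84.0 CPM in control-MADM, 54.0, 63.3 and 74.2 CPM in Eed-MADM, and 104, 88.5, 112 and 113 CPM in cKO-Eed-MADM. A single control-MADM library lay above all cKO-Eed-MADM libraries and the others lay below them (log2 difference 0.35, adjusted p = 0.16, edgeR).

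Apoptosis genes were prominent among the large fold changes. Phlda3 (chr1:135766119-135769136), a p53-induced inhibitor of Akt survival signalling, stood at 20.0, 26.5, 9.22, 34.5 and 14.1 CPM in control-MADM, at 23.0, 40.9 and 53.8 CPM (lowest, median, highest) in Eed-MADM, and at 231, 191, 281 and 398 CPM in cKO-Eed-MADM. The cKO-Eed-MADM libraries lay above the other 2 paradigms, which overlapped, and the difference was 13.4-fold (log2 3.74 ± 0.31 SE, adjusted p = 1.04e-08, edgeR). Pmaip1, the BH3-only protein Noxa, stood at 3.45, 0.524, 0, 1.07 and 1.82 CPM in control-MADM, at 1.16, 2.74 and 14.9 CPM in Eed-MADM, and at 50.2, 52.5, 43.2 and 56.1 CPM in cKO-Eed-MADM. It was 36.1-fold higher in cKO-Eed-MADM (log2 5.17 ± 0.68, adjusted p = 6.62e-06, edgeR), and its lowest cKO-Eed-MADM library was above the highest Eed-MADM library.

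The list held 3 receptors of the tumor necrosis factor family, of which 2 were tested. Eda2r (chrX:97333840-97377216), the receptor XEDAR, stood at 0.821, 1.92, 7.41, 4.07 and 4.48 CPM in control-MADM, between 1.25 and 8.23 CPM in Eed-MADM, and at 43.0, 41.0, 73.2 and 49.5 CPM in cKO-Eed-MADM, with no overlap (log2 difference 3.79 ± 0.46, adjusted p = 1.72e-06, edgeR). Fas (chr19:34290666-34327772), the death receptor, was listed at 0.164, 0.699, 0, 0 and 0 CPM in control-MADM, at 0 to 1.66 CPM in Eed-MADM, and at 4.78, 12.95, 5.96 and 22.7 CPM in cKO-Eed-MADM. There were 5 reads over the control-MADM libraries, 44 over the 14 libraries outside cKO-Eed-MADM and 224 over those of cKO-Eed-MADM. Since Fas was tested only because of the latter, its call (log2 difference 5.88 ± 1.04, adjusted p = 0.000177, edgeR) is a description, and the size of its fold change is uncertain. Tnfrsf10b, the TRAIL receptor, was too low to be tested at P0, at 0 to 1.16 CPM in control-MADM and 0.3598 to 4.20 CPM in cKO-Eed-MADM.

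Aen (chr7:78895854-78911209), an exonuclease that p53 induces in apoptosis, stood at 31.8, 40.5, 36.5, 42.4 and 36.3 CPM in control-MADM, at 24.5, 35.2 and 43.2 CPM in Eed-MADM, and at 76.2, 85.6, 91.3 and 124 CPM in cKO-Eed-MADM. The difference was smaller than that of Phlda3 but the groups did not overlap (log2 1.34 ± 0.18, adjusted p = 8.5e-06, edgeR). Trp53inp1, a nuclear cofactor of p53, stood at 14.6, 19.7, 24.9, 14.3 and 26.2 CPM in control-MADM and at 52.7, 32.7, 50.7 and 43.9 CPM in cKO-Eed-MADM. These groups did not overlap either (log2 difference 1.19 ± 0.26, adjusted p = 0.00184, edgeR), while the Eed-MADM libraries, at 16.3 to 39.1 CPM, reached into the range of cKO-Eed-MADM. Perp, a membrane protein of desmosomes and of p53-dependent apoptosis, was 5.72-fold higher (adjusted p = 0.00764, edgeR). Pidd1, the scaffold of caspase-2 activation, was 2.19-fold higher (adjusted p = 0.0235), and Bbc3, the BH3-only protein Puma, 1.55-fold higher (adjusted p = 0.0333).

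The remaining 3 apoptosis genes tested did not pass. Bax, the pore-forming effector of mitochondrial apoptosis, had a mean of 132 ± 35.8 CPM in control-MADM (SD, n = 5) against 149 ± 10.4 CPM for cKO-Eed-MADM (n = 4; log2 difference 0.19 ± 0.16 SE, adjusted p = 0.429, edgeR). Apaf1, the core of the apoptosome, stood at 16.7 ± 4.46 and 20.5 ± 1.04 CPM, and Ei24, a p53-induced protein of the endoplasmic reticulum, at 155 ± 20.4 and 183 ± 32.4 CPM. In each of the 3 the libraries of these groups overlapped.

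**Figure D2:**
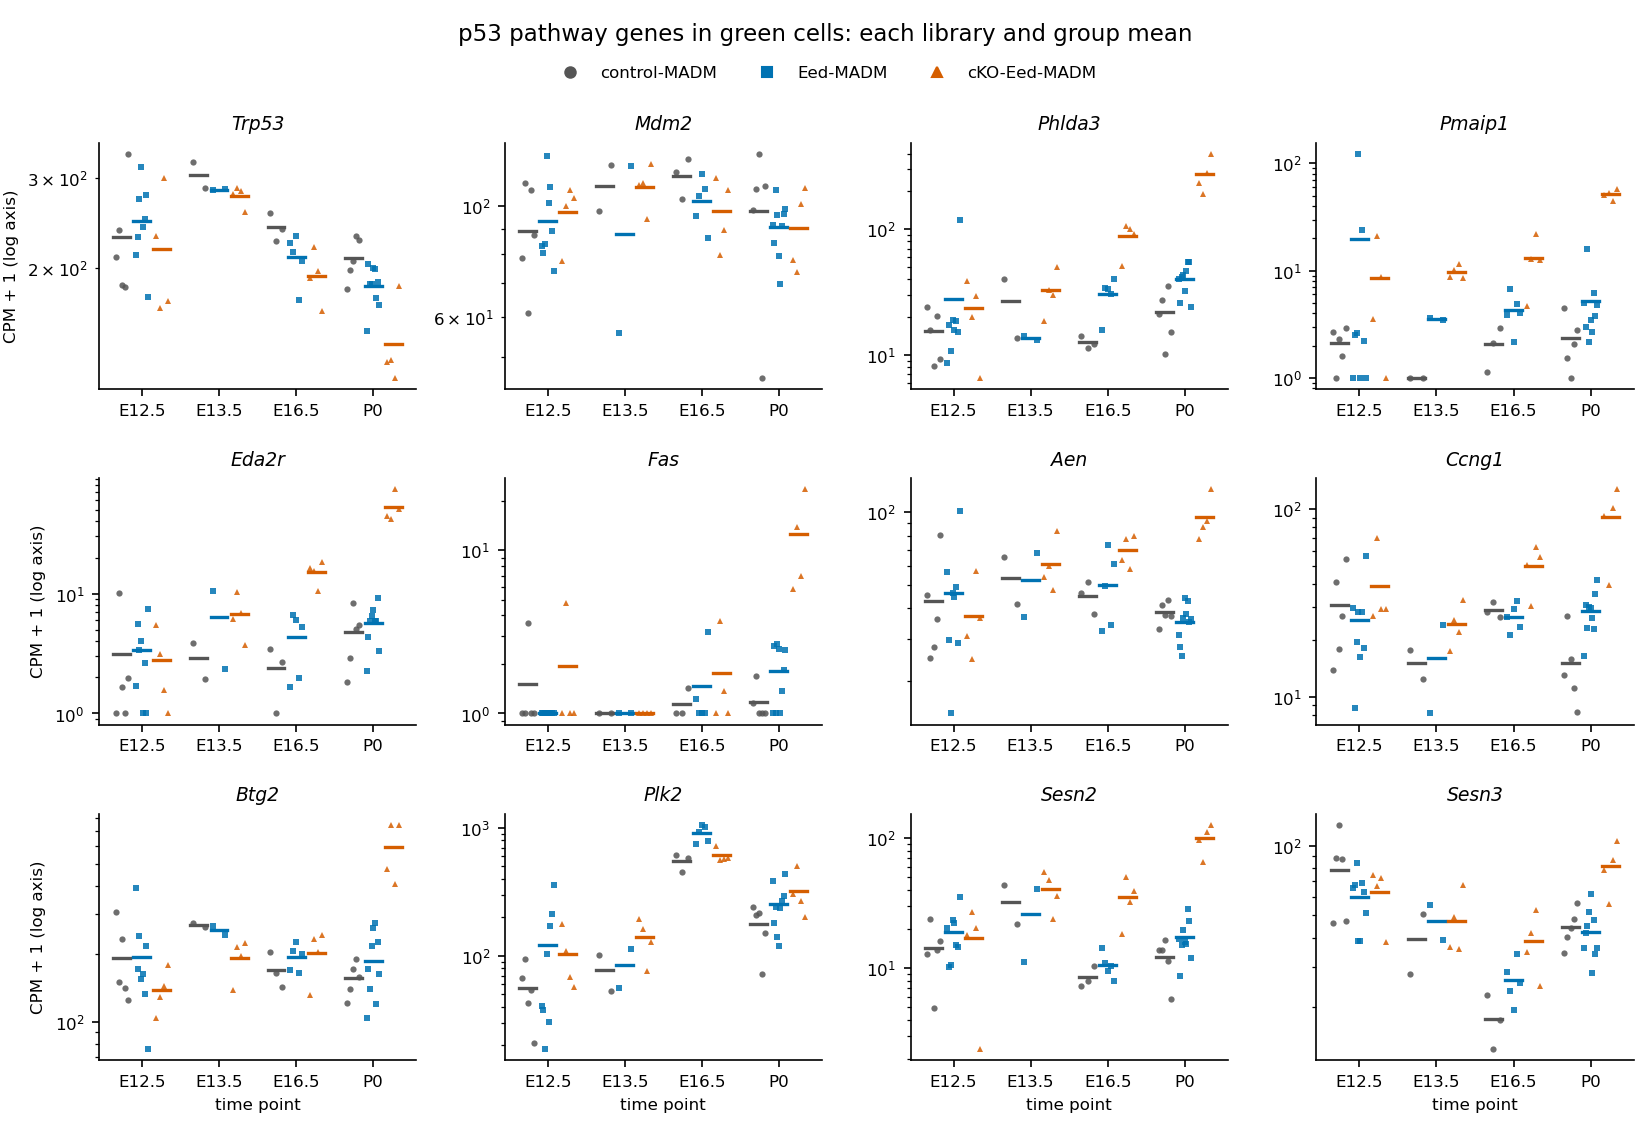
Expression of 12 p53 pathway members in each of the 55 green libraries, as CPM plus 1 on a log axis, by time point; points are libraries (grey circles control-MADM, blue squares Eed-MADM, orange triangles cKO-Eed-MADM) and lines are group means. At P0 the cKO-Eed-MADM libraries of Phlda3, at 191 to 398 CPM, and of Pmaip1, at 43.2 to 56.1 CPM, stand above every other library of that time point, whereas those of Mdm2 lie among the others.

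Among the genes of arrest and mitosis, Ccng1 (chr11:40748552-40755311), cyclin G1, stood at 11.98, 26.0, 14.8, 10.1 and 7.29 CPM in control-MADM, at 15.5, 28.6 and 41.1 CPM in Eed-MADM, and at 90.9, 38.5, 101 and 127 CPM in cKO-Eed-MADM. It was 6.40-fold higher than in control-MADM without overlap (adjusted p = 2.13e-06, edgeR), and 1 cKO-Eed-MADM library lay within the range of Eed-MADM. Btg2 (chr1:134075170-134079120), an antiproliferative gene expressed in neurogenic progenitors, stood at 120, 139, 170, 188 and 157 CPM in control-MADM, at 102, 171 and 274 CPM in Eed-MADM, and at 475, 747, 408 and 746 CPM in cKO-Eed-MADM. Every cKO-Eed-MADM library lay above all the others (log2 difference from control-MADM 1.95 ± 0.25, adjusted p = 4.16e-06, edgeR). Psrc1, a spindle protein, was higher by 1.45 ± 0.42 (adjusted p = 0.014), and Gadd45a, a stress-induced growth arrest gene, was higher by 1.16 ± 0.39 (adjusted p = 0.03). The log2 differences of Plk2 (0.86, adjusted p = 0.095), Plk3 (0.22), Ckap2 (0.39) and Gtse1 (0.28) did not pass. Plk2 and Plk3 are stress-responsive kinases, Ckap2 is a spindle protein, and Gtse1 restrains p53 in G2.

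DNA repair genes were split. Polk, a translesion polymerase, was 3.22-fold higher at a low level (adjusted p = 0.0113, edgeR), with 3.28, 3.84, 1.32, 6.21 and 4.48 CPM in control-MADM and 7.96, 7.195, 24.0 and 9.44 CPM in cKO-Eed-MADM. Xpc, the damage sensor of nucleotide excision repair, was lower by 0.52 ± 0.18 on the log2 scale (adjusted p = 0.04), with 40.7 to 53.8 CPM in control-MADM and 26.9 to 35.2 CPM in cKO-Eed-MADM, although this call was kept in only 6 of 18 alternative analyses. Ddb2, another sensor of nucleotide excision repair, had a log2 difference of 0.03 ± 0.36. Rrm2b, a subunit of ribonucleotide reductase, had one of 0.99 ± 0.51 (adjusted p = 0.165, edgeR).

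Among the metabolism and stress genes, both called genes were sestrins, which restrain mTORC1. Sesn2 (chr4:132492032-132510501), which senses leucine, stood at 12.8, 12.7, 15.5, 10.3 and 4.81 CPM in control-MADM, at 7.74, 14.8 and 27.4 CPM in Eed-MADM, and at 95.2, 65.1, 111 and 126 CPM in cKO-Eed-MADM. It was 8.90-fold higher without overlap (adjusted p = 1.1e-07, edgeR). Sesn3 stood at 33.3, 39.3, 43.1, 47.3 and 55.5 CPM in control-MADM, at 27.2, 40.9 and 60.9 CPM in Eed-MADM, and at 77.5, 55.04, 85.9 and 103 CPM in cKO-Eed-MADM, where 1 library lay within the range of the others (log2 difference 0.89 ± 0.22, adjusted p = 0.00372). Sesn1, which is also a p53 target, stood at 48.6 ± 7.91 and 58.1 ± 12.1 CPM and did not pass (adjusted p = 0.31).

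The other metabolic members did not pass at P0. Tigar, a bisphosphatase that lowers glycolysis, stood at 11.5 ± 4.28 CPM in control-MADM and 6.60 ± 4.49 CPM in cKO-Eed-MADM (log2 difference -0.83 ± 0.43, adjusted p = 0.169, edgeR). Fdxr, the mitochondrial ferredoxin reductase, stood at 44.6 ± 7.36 and 44.3 ± 8.35 CPM, and Ddit4, an inhibitor of mTORC1 induced by hypoxia and glucocorticoids, at 85.8 ± 17.3 and 70.9 ± 8.72 CPM. Gdf15, a secreted stress factor, and Dram1, a lysosomal regulator of autophagy, were too low to be tested at P0, with 19 and 10 reads over the control-MADM libraries and 93 and 20 over the cKO-Eed-MADM libraries.

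Against Eed-MADM, whose green cells are also Eed-/-, the cKO-Eed-MADM libraries of P0 had 18 members higher and 1 lower of 34 tested (55.9%, or 54.5% of 33 without Fas, beside 19.5% of all genes tested and 11.2% higher). Of these, 9 of 12 apoptosis genes were higher (8 of 11 without Fas), 4 of 8 genes of arrest and mitosis, 1 of 4 repair genes, 2 of 6 metabolism and stress genes and 2 of 4 regulators, and Trp53 was the 1 gene that was lower (log2 difference -0.39 ± 0.12 SE, adjusted p = 0.0247, edgeR). This call of Trp53 was kept in 9 of 13 alternatives, being lost with the replicate block and without cKO-Eed-MADM replicate 1, 2 or 3. Phlda3 was 6.89-fold higher (adjusted p = 3.68e-08), Eda2r 10.8-fold (adjusted p = 3.97e-07), and Pmaip1 11.8-fold (adjusted p = 2.2e-05). Rps27l passed in this comparison (log2 0.75 ± 0.16, adjusted p = 0.00136), with every cKO-Eed-MADM library above every Eed-MADM library. This comparison shares the cKO-Eed-MADM libraries with the one against control-MADM, so the 2 sets of calls are not independent.

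Between Eed-MADM and control-MADM no member passed at P0, beside 1.75% of all genes tested, and 7 of 34 had an unadjusted p under 0.05. Phlda3 came nearest, with a log2 difference of 0.96 ± 0.26 (adjusted p = 0.0621, edgeR), followed by Ccng1 with 0.99 ± 0.28 (adjusted p = 0.0743), and DESeq2 called 2 members. In these 2 genes the libraries of the paradigms overlapped. The median log2 difference of the 34 members was -0.09, and by role it was -0.10 for apoptosis, 0.12 for arrest and mitosis, 0.20 for repair, -0.10 for metabolism and stress and -0.14 for the regulators.

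At E16.5 the genes that passed were fewer. In cKO-Eed-MADM against control-MADM 6 of 33 members tested were higher and none was lower (18.2%, beside 8.58% of the 13359 genes tested and 6.16% higher), with a median log2 difference of 0.31 beside 0.00 over all genes. There were 8 members with every cKO-Eed-MADM library above every control-MADM library, beside 11.2% of all genes tested. The 6 were 3 of 11 apoptosis genes tested (Phlda3, Pmaip1 and Eda2r), 1 of 8 genes of arrest and mitosis (Gadd45a) and 2 of 6 metabolism and stress genes (Sesn2 and Sesn3), and each of them was also called at P0, where they made up 31.6% of 19 calls. No regulator and no repair gene passed.

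Phlda3 at E16.5 stood at 13.2, 10.3 and 11.3 CPM in control-MADM, at 14.6, 33.1, 32.2, 29.4 and 38.9 CPM in Eed-MADM, and at 50.2, 106, 99.6 and 90.6 CPM in cKO-Eed-MADM. The 3 paradigms did not overlap, and cKO-Eed-MADM was 7.58-fold above control-MADM (log2 2.92 ± 0.34 SE, adjusted p = 1.46e-05, edgeR). Sesn2 stood at 6.22, 6.95 and 9.38 CPM, at 13.3, 9.94, 8.50, 9.40 and 7.00 CPM, and at 17.4, 49.0, 31.3 and 38.3 CPM in the same order, with every cKO-Eed-MADM library above both other paradigms (log2 2.21 ± 0.40, adjusted p = 0.00106).

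Pmaip1 stood at 0.145, 1.11 and 1.92 CPM in control-MADM, at 2.84, 5.68, 1.14, 3.92 and 3.05 CPM in Eed-MADM, and at 3.69, 11.9, 21.0 and 11.6 CPM in cKO-Eed-MADM (log2 difference of cKO-Eed-MADM from control-MADM 3.56 ± 0.86, adjusted p = 0.0124, edgeR). Eda2r stood at 2.46, 0 and 1.71 CPM, at 0.655, 5.68, 5.07, 0.980 and 4.31 CPM, and at 15.4, 14.4, 9.54 and 17.2 CPM in that order (log2 3.28 ± 0.87, adjusted p = 0.0223). In both genes the cKO-Eed-MADM libraries lay above all control-MADM libraries, and for Pmaip1 1 of them lay within the Eed-MADM range.

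Sesn3 was at 21.7, 12.2 and 16.6 CPM in control-MADM, at 27.5, 22.5, 18.5, 33.1 and 24.6 CPM in Eed-MADM, and at 33.8, 41.1, 51.7 and 23.7 CPM in cKO-Eed-MADM (log2 1.18 ± 0.32, adjusted p = 0.0247, edgeR). Gadd45a was at 15.3, 20.6 and 14.1 CPM, at 23.6, 13.3, 12.6, 9.79 and 17.4 CPM, and at 25.6, 54.2, 32.8 and 45.3 CPM in that order (log2 1.28 ± 0.35, adjusted p = 0.0278). Neither gene overlapped between control-MADM and cKO-Eed-MADM. The call of Sesn3 was kept in 11 of 16 alternatives and that of Gadd45a in 12.

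Trp53 at E16.5 stood at 255, 226 and 238 CPM in control-MADM, at 223, 214, 230, 172 and 206 CPM in Eed-MADM, and at 190, 219, 196 and 164 CPM in cKO-Eed-MADM. The cKO-Eed-MADM libraries lay below those of control-MADM, but the log2 difference of -0.29 ± 0.14 did not pass (adjusted p = 0.262, edgeR). Mdm2 stood at 116, 102 and 123 CPM, at 94.3, 104, 115, 107 and 85.4 CPM, and at 113, 78.6, 88.5 and 106 CPM in that order, overlapping in all 3 paradigms.

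Against Eed-MADM at E16.5, 6 members were higher and 1 was lower in cKO-Eed-MADM of 33 tested (21.2%, beside 7.04% of all genes and 4.45% higher). Besides Phlda3 (log2 1.58 ± 0.26 SE, adjusted p = 0.000513, edgeR), Sesn2, Gadd45a and Ccng1, these were Psrc1, at 8.30, 7.81, 6.54, 3.33 and 3.95 CPM in Eed-MADM and 15.97, 21.5, 19.1 and 24.1 CPM in cKO-Eed-MADM (adjusted p = 0.00249), and Apaf1, at 14.6, 16.8, 9.48, 11.8 and 7.00 CPM and 34.8, 21.5, 25.4 and 19.8 CPM (adjusted p = 0.0278). The call of Apaf1 was kept in 11 of 18 alternatives. Ccng1 stood at 25.6, 20.4, 28.3, 31.5 and 22.6 CPM in Eed-MADM and at 49.1, 29.3, 61.8 and 54.3 CPM in cKO-Eed-MADM, where 1 library overlapped (adjusted p = 0.014). For Apaf1 the control-MADM libraries, at 19.8, 32.0 and 23.5 CPM, lay with those of cKO-Eed-MADM. Plk2 was the 1 member that differed between Eed-MADM and control-MADM (3.03% of 33 tested, beside 0.255% of all genes), at 753, 934, 1057, 1005 and 794 CPM against 610, 453 and 576 CPM (log2 0.73 ± 0.14, adjusted p = 0.0307), and it was lower in cKO-Eed-MADM, at 725, 562, 567 and 577 CPM, than in Eed-MADM (log2 -0.54 ± 0.13, adjusted p = 0.0103). The call of Plk2 between Eed-MADM and control-MADM was kept in 9 of 17 alternatives. Plk2 is also an early response gene of stimulated neurons.

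At E12.5 and E13.5 no member passed in any comparison. At E12.5, where 35 members were tested, none was called beside 0.0% of the 18100 genes tested in each of the 3 comparisons. An unadjusted p under 0.05 was found for 1292, 689 and 1307 of all genes for cKO-Eed-MADM against control-MADM, Eed-MADM against control-MADM and cKO-Eed-MADM against Eed-MADM, and for 3, 3 and 1 members, and DESeq2 called 6, 0 and 1 genes, none of them a member. The median log2 differences of the members were -0.03, 0.09 and -0.12. Trp53 stood at 229 ± 62.6 CPM in control-MADM (SD, n = 5), 246 ± 43.2 CPM for Eed-MADM (n = 8) and 217 ± 62.1 CPM for cKO-Eed-MADM (n = 4), and Mdm2 at 88.2 ± 20.8, 92.3 ± 17.3 and 96.3 ± 13.47 CPM. The estimated biological coefficient of variation was 0.630 at E12.5 against 0.273 at P0, and the log2 difference of Phlda3 between cKO-Eed-MADM and control-MADM, 0.65 at E12.5, had an SE of 0.68 there against 0.31 at P0.

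At E13.5, with 33 members tested, the share of all 13448 genes called was 0.0372% for cKO-Eed-MADM against control-MADM, 0.0% for Eed-MADM against control-MADM and 0.0223% for cKO-Eed-MADM against Eed-MADM. In the comparison of Eed-MADM with control-MADM 824 genes had an unadjusted p under 0.05, and 1, 1 and 2 members did in the 3 comparisons. Pmaip1 was the exception in size. It was listed at 0 in both control-MADM libraries, at 2.59 and 2.47 CPM in Eed-MADM, and at 7.74, 9.05, 10.54 and 7.64 CPM in cKO-Eed-MADM, with 0, 25 and 172 reads in all, and it passed the filter on low counts there only through cKO-Eed-MADM. Against a floor of 3 reads over the control-MADM group it was at least 32.7-fold higher in cKO-Eed-MADM, though it did not pass (adjusted p = 0.0612, edgeR) and was called in 6 of 15 alternatives.

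Phlda3, Trp53 and Mdm2 overlapped between cKO-Eed-MADM and control-MADM at E13.5. The Eed-MADM libraries lay below those of cKO-Eed-MADM for Phlda3, and just below those of control-MADM for Trp53. Phlda3 stood at 39.2 and 12.6 CPM in control-MADM, at 13.2 and 12.1 CPM in Eed-MADM, and at 17.7, 31.9, 29.0 and 48.8 CPM in cKO-Eed-MADM. Trp53 stood at 322 and 286 CPM, at 283 and 285 CPM, and at 278, 286, 282 and 257 CPM, and Mdm2 at 96.8 and 120, at 54.7 and 119, and at 109, 110, 93.3 and 120 CPM. Btg2, which was higher in cKO-Eed-MADM at P0, stood at 274 and 262 CPM in control-MADM, at 266 and 240 CPM in Eed-MADM, and at 137, 214, 194 and 221 CPM in cKO-Eed-MADM. Here the cKO-Eed-MADM libraries lay below all the others, and the log2 difference from control-MADM of -0.48 ± 0.27 did not pass (adjusted p = 0.599, edgeR). With 2 control-MADM libraries at E13.5, the overlap does not show that the paradigms were alike.

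**Figure D3:**
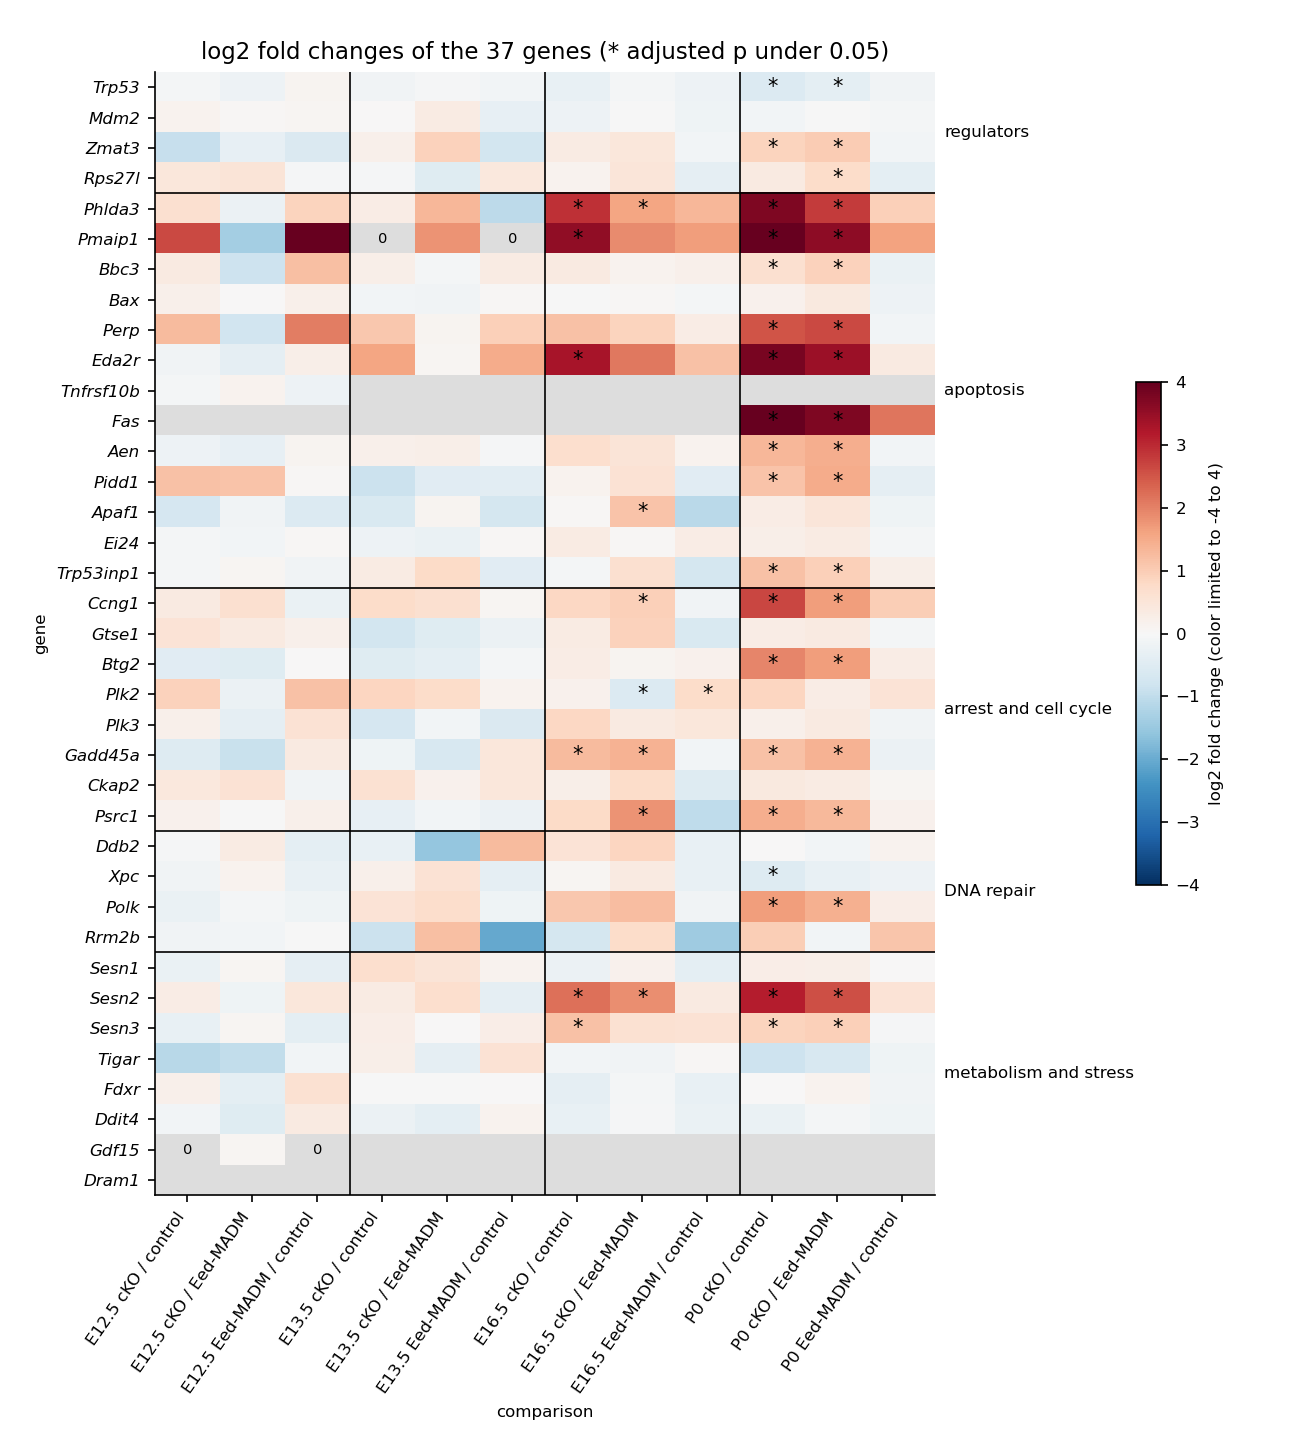
Log2 fold change (colour) of the 37 members in the 12 comparisons of paradigms, 3 at each time point, with members ordered by role; an asterisk marks an adjusted p under 0.05, grey a member not tested, and 0 a comparison in which 1 group has no read. Asterisks are absent at E12.5 and E13.5 and are most numerous in the 2 comparisons of cKO-Eed-MADM at P0, with 19 in each.

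The difference between time points was tested as the cKO-Eed-MADM effect, relative to control-MADM, at P0 minus that at E16.5. No member passed of 33 tested, beside 0.288% of the 13519 genes tested, 3 members had an unadjusted p under 0.05, and DESeq2 called 1 member. The effect on Btg2 differed most, by 1.69 ± 0.42 (SE; adjusted p = 0.0684, edgeR), followed by that on Ccng1, by 1.87 ± 0.58 (adjusted p = 0.226). The median of the members was 0.38 beside -0.05 over all genes. The numbers of calls at the 2 time points were not compared by a test of their own.

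A few members differed between time points in control-MADM cells. Libraries of a time point may share handling, so age and handling cannot be told apart. From E13.5 to E16.5, 1 member rose and 4 fell of 33 tested (15.2%), beside 9.13% of all genes called. Gtse1 went from 49.8 and 13.4 CPM to 5.93, 3.06 and 6.61 CPM (log2 -2.58 ± 0.66 SE, adjusted p = 0.00756, edgeR), Plk3 from 114 and 46.3 to 30.4, 15.6 and 33.3 CPM (adjusted p = 0.0349), Sesn2 from 42.3 and 20.8 to 6.22, 6.95 and 9.38 CPM (adjusted p = 0.016) and Sesn3 from 27.0 and 49.8 to 21.7, 12.2 and 16.6 CPM (adjusted p = 0.0379). Plk2 rose from 100 and 51.6 to 610, 453 and 576 CPM (log2 2.85 ± 0.78, adjusted p = 0.0142). These calls rest on 2 libraries at E13.5, and the count fell to between 0 and 4 when a library was left out, with 0 without E13.5 control-MADM replicate 1 and 1 without E16.5 control-MADM replicate 2.

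From E16.5 to P0 1 member rose and 1 fell (6.06% of 33 tested), beside 7.63% of all genes called, a share near the background. Sesn3 rose to between 33.3 and 55.5 CPM (log2 1.36 ± 0.32 SE, adjusted p = 0.00385, edgeR). Trp53inp1 fell from 61.0, 35.0 and 52.2 CPM to between 14.3 and 26.2 CPM (log2 -1.31 ± 0.34, adjusted p = 0.0104).

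Per kilobase of exon, a scale on which genes can be compared, the highest members in control-MADM at P0 were Rps27l (101 CPM per kb), Bax (83.8), Btg2 (56.4), Trp53 (51.5) and Ddit4 (48.9). Rps27l and Bax did not differ beyond the spread of their libraries, nor did Btg2, Trp53 and Ddit4. Dram1 (0.109), Fas (0.0837) and Tnfrsf10b (0.0795) were the lowest. Pmaip1 and Eda2r, which had large fold changes in cKO-Eed-MADM, were 32 and 31 in this order of the 37, whereas Bax and Trp53 were 2 and 4.

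Of the 37 members 13 were called in no comparison: Mdm2, Bax, Tnfrsf10b, Ei24, Ckap2, Ddb2, Rrm2b, Sesn1, Tigar, Fdxr, Ddit4, Gdf15 and Dram1. Of the other 24, 22 were called between paradigms and Gtse1 and Plk3 were called only between time points. Dram1 was never tested, Gdf15 and Tnfrsf10b were tested only at E12.5, and Fas only at P0, which for Fas follows from its level in the mutant libraries. Unstranded counting leaves out reads in bases shared with an overlapping gene, which were 23.8% of the exonic bases of Ddb2 (Acp2), 19.1% of those of Gadd45a (E230016M11Rik) and 12.2% of those of Bax (Gm45808), and the values of these genes are less certain for it.

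Other p53 targets and regulators, on lists chosen with earlier results of these data known, were counted beside the members. At P0 in cKO-Eed-MADM against control-MADM 5 of 15 other p53 targets were higher and none was lower (33.3% higher, beside 14.2% of all genes tested). They were led by Cdkn1a at 617 CPM against 25.1 CPM (log2 4.64 ± 0.42 SE, adjusted p = 1.28e-07, edgeR), Cd82, a tetraspanin that suppresses metastasis (adjusted p = 9.97e-07), and the phosphatase Ptp4a3 (adjusted p = 0.00297). Of 15 other p53 family members and regulators 2 were higher and none was lower (13.3% higher), a share near that of all genes tested. The 2 were Trp73, the p53 relative p73, at 33.3 CPM against 1.20 CPM (adjusted p = 0.000105, edgeR), and Ppp1r13b, the p53 cofactor ASPP1 (adjusted p = 0.000563). In Eed-MADM against control-MADM at P0, where no member passed, Cdkn1a was the called gene of these lists, at 69.8 CPM against 25.1 CPM (log2 1.51 ± 0.34, adjusted p = 0.0297, edgeR). At E16.5, in cKO-Eed-MADM against control-MADM, Cdkn1a (log2 3.88, adjusted p = 2.52e-06, edgeR) and Ppp1r13b (log2 0.85, adjusted p = 0.0303) were the called genes of these lists. They made up 7.69% of 13 targets and 6.67% of 15 regulators tested, beside 6.16% of all genes higher.

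The machinery downstream of p53 in apoptosis did not move one way. Of 11 BCL2 family genes outside the members 3 were higher and 2 lower at P0 (45.5% called, beside 24.2% of all genes tested). The higher genes were the BH3-only genes Bcl2l11 (Bim; log2 1.11, adjusted p = 0.000986, edgeR) and Hrk (log2 1.52, adjusted p = 0.00105) and the antiapoptotic Bcl2 (log2 1.02, adjusted p = 0.00216), and the lower ones were the antiapoptotic Bcl2l1 and the proapoptotic Bad. Of 18 caspases and their regulators 1 was higher and 3 were lower (22.2% called), a share near that of all genes tested. The higher gene was the kinase Ripk1 (log2 1.39, adjusted p = 0.0334, edgeR). Among the lower were Casp2 (log2 -0.79, adjusted p = 0.00513) and Dffa, the inhibitor of the caspase-activated nuclease (log2 -0.69, adjusted p = 0.0468). Summed, the caspase list stood at 733 to 849 CPM in control-MADM, 744 to 872 CPM in Eed-MADM and 635 to 718 CPM in cKO-Eed-MADM. At E16.5 Bcl2l11 (adjusted p = 0.00125, edgeR) and Hrk (adjusted p = 0.00257) were higher (16.7% of 12 tested, beside 8.58% of all genes). No caspase gene of 17 tested passed there. Caspases are activated as proteins, which these counts do not measure.

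Markers of other states and cells moved with the members in cKO-Eed-MADM. At P0 all 10 immediate early genes, which stimulation or tissue dissociation can induce and with which Btg2 and Plk2 are often listed, were higher: summed, they stood at 3133 to 3809 CPM in control-MADM, 4260 to 7056 CPM in Eed-MADM and 9078 to 14214.5 CPM in cKO-Eed-MADM, led by Fos, Junb and Jun. At E16.5 8 of 10 were higher, at 3440 to 4451, 5637 to 6910 and 7798 to 9931 CPM. Of all genes tested, 14.2% were higher in cKO-Eed-MADM than in control-MADM at P0 and 6.16% at E16.5. In Eed-MADM against control-MADM, where no member passed at P0, 3 of 10 were higher (30.0%, beside 1.75% of all genes called). Their part in the values of the members was not tested. Of 9 ATF4 stress genes tested at P0, with which Sesn2 is also listed, none passed against control-MADM (7 positive, median log2 difference 0.51). Against Eed-MADM 3 of the 9 were higher in cKO-Eed-MADM (33.3%, beside 11.2% of all genes tested). At E16.5 1 of 8 tested, Psat1, was higher than in control-MADM (12.5%, beside 6.16% of all genes; adjusted p = 0.0385, edgeR).

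Cell type markers also shifted at P0. Of all 14161 genes tested there, 2010 were higher and 1417 were lower in cKO-Eed-MADM than in control-MADM. Mitosis genes were lower (13 of 20, led by Aurkb, Ccna2 and Ube2c), summing to 494 to 786 CPM in control-MADM, 285 to 733 CPM in Eed-MADM and 177 to 288 CPM in cKO-Eed-MADM. In the same libraries the mitotic members Ckap2, Gtse1 and Psrc1 had log2 differences of 0.39, 0.28 and 1.45. Projection neuron markers were lower (4 of 5, among them Neurod2 and Neurod6), at 1124 to 2288, 1249 to 2067 and 270 to 620 CPM, and interneuron markers were lower (4 of 5), at 345 to 872, 316 to 562 and 144 to 220 CPM. Astrocyte markers were higher (4 of 4, led by Gfap, Aqp4 and Slc1a3), at 611 to 1188, 540 to 1688 and 1811 to 3544 CPM. In bulk samples such as these, fewer cells of a type and less RNA per cell cannot be told apart.

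Markers of cells outside the Emx1 neural lineage moved too. Microglia markers were higher at P0 (5 of 5 tested of 6), at 7.29 to 23.8 CPM in control-MADM, 1.25 to 97.5 CPM in Eed-MADM and 121 to 240 CPM in cKO-Eed-MADM, as were meningeal markers (4 of 4 tested of 5), at 8.21 to 15.2, 7.03 to 28.4 and 86.3 to 221 CPM. Endothelial markers stood at 2.30 to 13.3, 1.75 to 10.46 and 9.73 to 39.5 CPM with the 1 gene tested not called, Kdr being listed at 0 in control-MADM, and red blood cell genes at 2.15 to 223, 1.39 to 323 and 1.06 to 49.8 CPM, with none of 5 called. At E16.5 microglia markers stood at 3.06 to 4.05, 0.359 to 23.8 and 7.42 to 50.0 CPM, with 2 of 4 tested higher and Csf1r listed at 0 in control-MADM, while interneuron markers were higher (5 of 5), at 9.38 to 33.996, 15.1 to 55.9 and 242 to 492 CPM. Of all 13359 genes tested at E16.5, 823 were higher and 323 were lower in cKO-Eed-MADM than in control-MADM. Among cell types of the Emx1 lineage, astrocyte markers were also higher at E16.5 (3 of 4), at 90.1 to 117, 52.4 to 168 and 195 to 562 CPM. Projection neuron markers were lower (3 of 5), at 3841 to 4055, 2991 to 4273 and 1493 to 1998 CPM. Intermediate progenitor markers were split, with 1 higher and 2 lower of 3, and summed to 464 to 572, 272 to 469 and 221 to 318 CPM. In bulk samples, more cells of a type and expression of its markers in other green cells cannot be told apart. The part of either in the values of Fas, Phlda3, Perp and the other members was not tested.

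**Figure D4:**
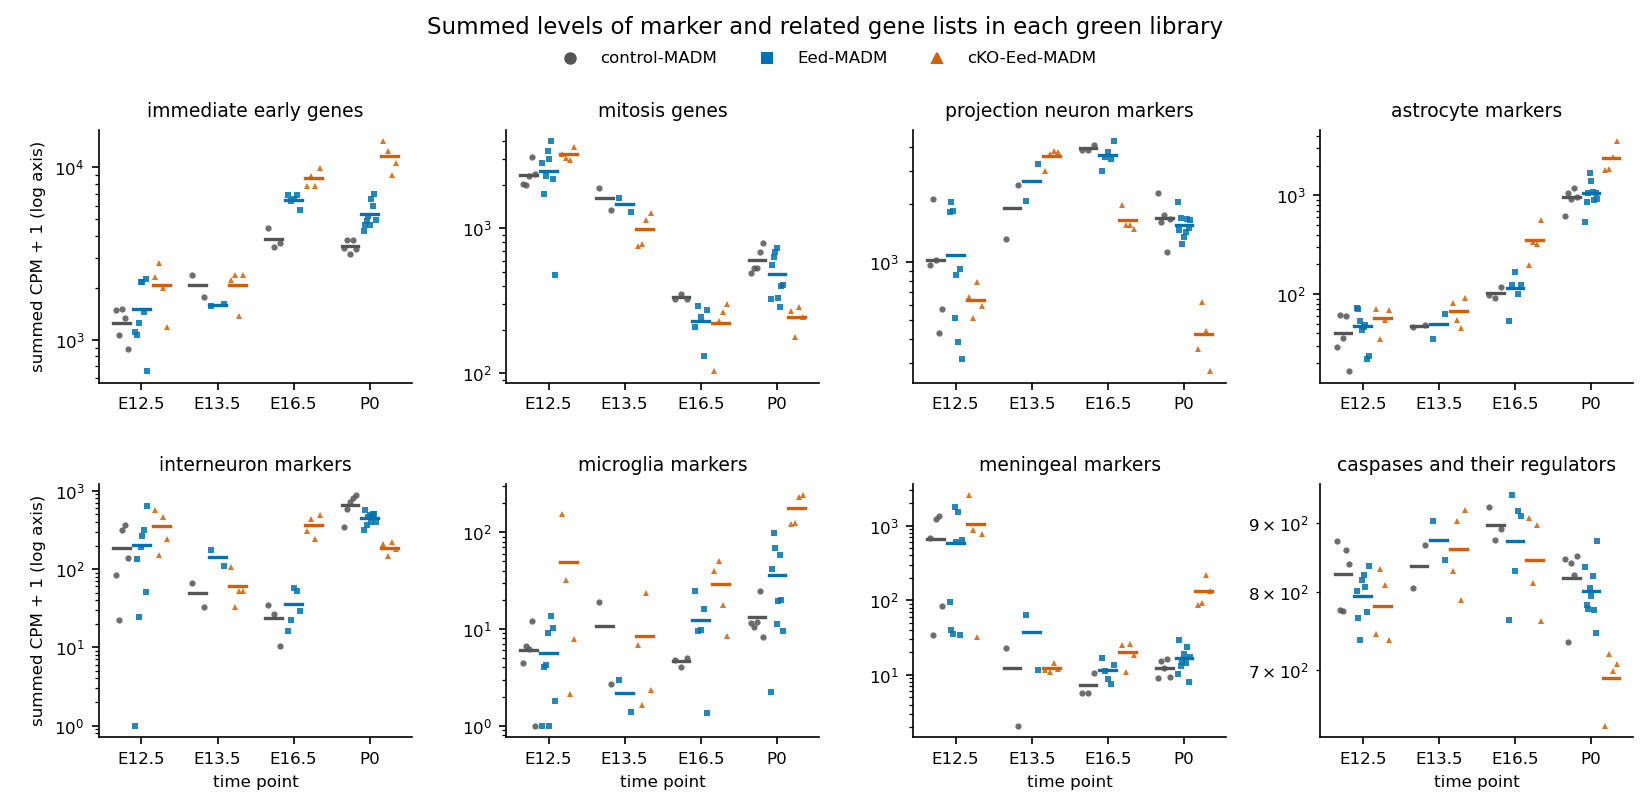
Summed CPM plus 1 (log axis) of 8 marker lists in each of the 55 green libraries by time point; points are libraries (grey circles control-MADM, blue squares Eed-MADM, orange triangles cKO-Eed-MADM) and lines are group means. At P0 the cKO-Eed-MADM libraries lie above all control-MADM libraries for the immediate early, astrocyte, microglia and meningeal lists. They lie below them for the mitosis, projection neuron, interneuron and caspase lists.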

How the data were processed

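Green (GFP+) cells were sorted from pooled cortices dissociated with papain, and bulk RNA libraries were made by Smart-Seq2. Per the labels and the study's methods, the authors aligned reads to the mouse genome (mm10) with STAR, version not given in the sources at hand, and deposited raw read counts per gene, of which the unstranded column was used. Symbols were matched to GENCODE M21 for 53274 of 53379 genes. Reads in no gene or in several were 13.4 to 40.1% of uniquely aligned reads and stayed out of library sizes. The members, gene lists and tests were chosen with earlier results of these data known.

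Counts were tested with edgeR 4.0.16 (R 4.3.3; TMM scaling, robust quasi-likelihood fit in its version 3 form) in 1 fit of the 3 paradigms per time point, for genes with a mean count over 1 at E12.5 and over 10 later, with Benjamini-Hochberg adjustment at 0.05. Age contrasts and the difference between time points came from 1 fit of all 12 groups. Printed CPM were scaled by TMM over all 55 libraries. Alternatives were DESeq2 1.42.0, DESeq2 size factors in edgeR, other filters, all green libraries, counts of 1 strand, the newer quasi-likelihood form, only the 2 groups compared, a replicate block and leaving out each library. The tests were checked on simulated counts.

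Every member is accounted for; values per library are given for Trp53, Mdm2 and at most 10 called members per comparison with the lowest adjusted p, and at most 3 called genes are named per marker list, of which some are not reported here. Gene reads per library of 865832 to 7249098 set the depth, and read numbers and floors cover counting error only. No pair of libraries held identical counts. Of 116 libraries, 48 were not green and 13 green ones were below the depth limits.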

Additional observations from a re-analysis of the deposited data

Results flagged for a closer look

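In 21 of 223 groups of 4 to 9 libraries tested, covering Trp53, Mdm2 and every member called in some comparison at each time point, 1 library stood apart from the rest of its group by Dixon's criterion at 95%. For normally distributed values chance gives about 1 in 20 groups. CPM are bounded at 0 and were not put on a log scale, so this rate need not hold. Some flags rest on few reads, such as 4 of Fas in control-MADM replicate 2 at P0. In all 21 the library was the highest of its group.

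Of the 21, 10 were at E12.5. Eed-MADM replicate 9, the library least like the others of that time point, had Phlda3 at 117.791 CPM (next highest 18.0), Bbc3 at 200.65 CPM (40.0), Perp at 110.48 CPM (17.9) and Ccng1 at 55.2398 CPM (28.6). Eed-MADM replicate 5 had Pmaip1 at 122.15 CPM (22.9) and replicate 6 had Pidd1 at 58.9277 CPM (34.3). In control-MADM, replicate 2 had Eda2r at 9.08419 CPM (0.975) and replicate 3 had Fas at 2.60829 CPM, against 0 in the rest. In cKO-Eed-MADM, replicate 3 had Fas at 3.76996 CPM, against 0 in the rest, and Ccng1 at 69.4749 CPM (28.4).

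At E13.5 cKO-Eed-MADM replicate 3 had Rps27l at 202.854 CPM (95.1). At E16.5 Fas stood at 2.15315 CPM (0.218) in Eed-MADM replicate 5 and at 2.68248 CPM (0.381) in cKO-Eed-MADM replicate 2, Pidd1 at 27.6153 CPM (12.3) in Eed-MADM replicate 3, and Plk2 at 725.337 CPM (577) in cKO-Eed-MADM replicate 1. At P0 cKO-Eed-MADM replicate 4 had Trp53 at 183.788 CPM (131) and replicate 3 had Polk at 24.0276 CPM (9.44). Eed-MADM replicate 3 had Rps27l at 74.1785 CPM (64.0), Pmaip1 at 14.8733 CPM (5.13) and Gadd45a at 19.3918 CPM (10.95), and control-MADM replicate 2 had Fas at 0.698515 CPM (0.164).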

How the results depend on the processing

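No called member changed its direction under any alternative. Bax at E13.5, which was not called, was called lower than control-MADM with all green libraries, by a log2 difference of -2.22 in cKO-Eed-MADM and -2.66 in Eed-MADM (against -0.10 and 0.05). At P0 the number of members called ranged from 15 to 20 for cKO-Eed-MADM against control-MADM and from 16 to 21 against Eed-MADM, and at E12.5 it was 0 throughout, also without Eed-MADM replicate 9, a choice made after seeing the data. Btg2, Phlda3, Zmat3, Trp53inp1, Sesn2, Aen, Sesn3, Perp, Ccng1, Trp53, Pmaip1 and Eda2r kept their call against control-MADM in all 18 alternatives at P0, Fas in all 16 that could be read for it, Psrc1 in 17, Polk in 16, Pidd1 in 14, Gadd45a and Bbc3 in 13 and Xpc in 6. For cKO-Eed-MADM against control-MADM at E13.5, none called became 1 with DESeq2, without a filter, with only the 2 groups and with the newer test form, 2 with all green libraries, and 0 to 1 with a library left out (1 without control-MADM replicate 3). For Eed-MADM against control-MADM, all green libraries gave 2 at E13.5. At E16.5 the 1 call of that comparison became 2 with DESeq2 or no filter, 0 with only the 2 groups or the replicate block, and 0 to 2 with a library left out. At P0 none became 2 with DESeq2, 1 with 1-strand counts or the newer form, and 0 to 1 with a library left out (1 without control-MADM replicate 2 or 5). The 6 calls of cKO-Eed-MADM against control-MADM at E16.5 became 3 to 6 with a library left out (3 without control-MADM replicate 2 or 3), 4 with the replicate block and 7 with DESeq2. Of these, Phlda3 and Sesn2 were kept in all 16 alternatives, Pmaip1 in 13, Eda2r and Gadd45a in 12 and Sesn3 in 11. The 7 calls against Eed-MADM at E16.5 became 5 to 9, with Apaf1 kept in 11 of 18. At P0 Trp53 was kept against Eed-MADM in 9 of 13, being lost with the replicate block and without cKO-Eed-MADM replicate 1, 2 or 3. The 5 calls from E13.5 to E16.5 became 0 to 4 (0 without E13.5 control-MADM replicate 1) and the 2 from E16.5 to P0 became 1 to 3 with a library left out. The difference between time points went from 0 to 1 with DESeq2 or no filter, and to 0 to 1 with a library left out (Btg2, without P0 cKO-Eed-MADM replicate 3). The cause was not tested. Deviations of libraries that share a replicate number had correlations of -0.17 to 0.38, with a median at P0 of 0.054 against -0.017 for other pairs. The labels do not say whether the numbers mark a shared sort, and the libraries were treated as unpaired. The replicate block gave 15 calls at P0 for cKO-Eed-MADM against control-MADM and 16 against Eed-MADM. Other scalings moved the median of all genes by under 0.05 on the log2 scale. Depth limits Fas, Gdf15, Tnfrsf10b, Dram1 and Pmaip1, which had few or no reads in control-MADM.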
